A study of Mus musculus with 15 samples.

Results

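Insr, Igf1r, Irs1, Irs2, Igfbp2, Igfbp3, Igfbp4 and Igfbp5 were followed across mouse embryonic stem cells (ESC) with and without the chromatin protein Hmga1. These 8 genes were chosen by symbol from the 21662 gene symbols that both count tables share, because Insr and Igfbp genes have been described as Hmga1 targets in other cell types. All 8 passed the minimum of a mean count of 10 in both experiments, so none was lost to the filter on low values.

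The 15 RNA-seq libraries came from 2 experiments on ESC of a mixed 129Sv-C57Bl/6 background, grown with LIF and fetal calf serum on feeder cells or gelatine. The KO experiment held 9 libraries: 3 of the parental wild type (WT), 2 of an Hmga1 KO line with CRISPR-Cas9 frameshift mutations at an intron-exon junction of Hmga1, 2 of an Hmga1 add-back and 2 of an Hmga2 add-back. The parental line carries the biotin ligase BirA-V5 under the CAG promoter, and both add-backs were made by inserting a biotin-tagged cDNA under CAG at a defined genomic site of the KO cells, so they carry the frameshift mutations too. The full-deletion experiment held 3 WT libraries and 3 libraries of a line whose whole Hmga1 coding sequence was removed with guide RNAs at both ends. Each mutant genotype was represented by 1 line, so line and genotype cannot be told apart, and replicates were cultures of that line. The letters a, b and c of the KO experiment are batches that shared a day of library preparation and a flow cell, and batch c held WT only. Batch is a term of that fit, so the term for batch c takes up WT library c. The fold change of KO against WT therefore rests on batches a and b.

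Insulin and the insulin-like growth factors IGF1 and IGF2 act through the receptor tyrosine kinases encoded by Insr and Igf1r. The activated receptors phosphorylate the adaptors Irs1 and Irs2, which dock PI3-kinase and so connect the receptors to AKT and mTOR. The secreted IGF-binding proteins hold IGFs in the extracellular space and set how much ligand reaches the receptor, and in ESC this pathway is known to support growth and survival. Hmga1 and Hmga2 bind AT-rich DNA through AT-hooks, and Hmga2 is a related protein that ESC express only at a low level.

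The lines were first checked by the targeted genes, in CPM, the counts scaled to a common library size with TMM factors. Hmga1 stood at 464, 276 and 220.4 CPM in WT and at 217 and 96.0 CPM in KO, with a log2 fold change of -1.29 (SE 0.17, adjusted p = 0.0534, by the quasi-likelihood test of edgeR, Benjamini-Hochberg adjusted across all genes tested). It was 356, 310.2 and 354 CPM in the WT and 12.3, 10.9 and 12.1 CPM in the full-deletion libraries. The libraries labelled Hmga1 add-back held 184 and 123 CPM of Hmga1, a log2 difference of 0.04 from KO (95% interval -0.34 to 0.42), so the gene-level count, which also takes in the mutated locus, does not separate them from KO. By Western blot the study detected no Hmga1 protein in the KO line, and reported a level comparable to WT in the Hmga1 add-back. Hmga2 was 249 and 222 CPM in the Hmga2 add-back and 12.8 to 23.8 CPM in every other library.

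The library totals ran from 13465399 to 34952136 counts in the KO experiment and from 14832310 to 21708492 in the full-deletion experiment. The 4 libraries of batch b were the shallowest, at 13465399 to 14585417 counts. WT library b of the full-deletion experiment stood apart, with a TMM factor of 0.752 against 0.986 to 1.12 in the other 5 libraries and 8.78% of its counts in its 10 top genes against 4.67% to 5.38%, so the results of that experiment are also given without it. The ESC markers Pou5f1, Nanog and Sox2 were present in every group, and the lists of markers of other cell types are given beside the members' values.

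By position the 8 genes lie on 4 chromosomes of the NCBIM37 assembly (GENCODE vM1). Igfbp2 (chr1:72871077-72899048, plus strand) and Igfbp5 (chr1:72904506-72921458, minus strand) point towards each other with 5.46 kb between their ends. Irs1 (chr1:82229676-82287991, minus strand) lies further along the same chromosome. Insr (chr8:3150922-3279617, minus strand) and Irs2 (chr8:10986980-11008458, minus strand) share chromosome 8, Igfbp3 (chr11:7106089-7113926, minus strand) and Igfbp4 (chr11:98902558-98913969, plus strand) share chromosome 11, and Igf1r spans 273.8 kb (chr7:75097713-75371484, plus strand). No member overlaps another annotated gene on its own strand, and reads were counted by strand. The AT content of the gene spans ran from 47.8% in Igfbp4 to 57.2% in Irs1, against a median of 54.4% over 22366 protein-coding genes.

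Because Hmga proteins read AT content, the sequences upstream of the start sites are shown for the 5 members whose CPM did not overlap between the WT and full-deletion libraries, a separation that 51.3% of all genes tested also showed. Each is the 250 bases before a RefSeq start of the gene (the upstream of 2 for Igfbp2), from a table of the GRCm38.p6 assembly, in the direction of transcription. Each was found by exact match at a unique place on its chromosome in NCBIM37. These places are chr1:82288015-82288264 for Irs1, chr8:11008930-11009179 for Irs2, chr1:72870804-72871053 for Igfbp2, chr11:7113927-7114176 for Igfbp3 and chr11:98902308-98902557 for Igfbp4, on the strands given above. Capitals mark every run of 6 or more bases that are all A or T. In the study, longer runs of A and T appeared to be bound no more strongly than base content predicts, and promoters showed no enrichment of Hmga. The capitals therefore mark sequence only and not Hmga sites.
Irs1: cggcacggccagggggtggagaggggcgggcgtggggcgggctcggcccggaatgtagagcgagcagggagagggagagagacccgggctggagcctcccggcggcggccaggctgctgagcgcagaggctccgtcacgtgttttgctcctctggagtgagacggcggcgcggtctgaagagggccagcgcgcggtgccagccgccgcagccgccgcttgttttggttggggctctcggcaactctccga
Irs2: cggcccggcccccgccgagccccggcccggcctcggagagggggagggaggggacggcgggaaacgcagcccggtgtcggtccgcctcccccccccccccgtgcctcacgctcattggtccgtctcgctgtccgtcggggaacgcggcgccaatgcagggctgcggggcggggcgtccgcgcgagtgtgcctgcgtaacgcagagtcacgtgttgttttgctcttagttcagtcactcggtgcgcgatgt
Igfbp2: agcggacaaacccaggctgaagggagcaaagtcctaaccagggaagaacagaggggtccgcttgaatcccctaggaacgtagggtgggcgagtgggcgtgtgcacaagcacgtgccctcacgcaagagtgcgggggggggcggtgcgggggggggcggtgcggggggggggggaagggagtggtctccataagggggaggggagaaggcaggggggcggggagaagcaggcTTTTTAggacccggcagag
Igfbp3: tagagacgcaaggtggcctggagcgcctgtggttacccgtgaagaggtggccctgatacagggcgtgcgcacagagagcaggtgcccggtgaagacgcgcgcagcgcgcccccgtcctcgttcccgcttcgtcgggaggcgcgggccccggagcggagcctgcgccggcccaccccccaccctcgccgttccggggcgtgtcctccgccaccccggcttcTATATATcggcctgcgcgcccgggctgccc
Igfbp4: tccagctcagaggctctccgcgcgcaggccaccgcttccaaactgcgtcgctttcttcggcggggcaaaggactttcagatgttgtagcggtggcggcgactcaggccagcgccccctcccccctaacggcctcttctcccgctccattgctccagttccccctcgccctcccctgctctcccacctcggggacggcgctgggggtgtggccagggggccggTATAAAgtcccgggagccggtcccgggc

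The windows shown were poor in A and T. The AT content was 27.6% for Irs1, 27.2% for Irs2, 32.8% for Igfbp2, 26.8% for Igfbp3 and 30.8% for Igfbp4, against a median of 47.6% over the 32851 windows of the table. Among the other members' windows, that of Igf1r had 22.4%, that of Igfbp5 41.2% and the second of Igfbp2 (chr1:72871711-72871960) 43.6%. The adaptors Irs1 and Irs2 held no A/T run of 6 bases, and Igfbp3 (TATATAT), Igfbp4 (TATAAA) and Igfbp2 (TTTTTA) each held 1, close to the start site. Of the windows not shown, that of Igfbp5 held a run of 9 bases, and those of Igf1r and of the second Igfbp2 start held none. Of all windows 66.9% held such a run.

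In WT ESC the binding protein Igfbp2 was by far the most abundant of the 8 transcripts per length. Its level was 126 ± 14.5 RPKM (the CPM divided by the exon length in kilobases, SD, n = 3) in the WT of the KO experiment, above 95.8% of the genes tested. Igfbp3 followed at 5.96 ± 1.66 RPKM and Igfbp4 at 2.03 ± 0.040 RPKM. The receptors Igf1r and Insr stood at 3.77 ± 1.10 and 2.84 ± 0.48 RPKM. The adaptor Irs2 stood at 1.49 ± 0.74 RPKM and Irs1 at 0.609 ± 0.074 RPKM. Igfbp5 was barely present at 0.119 ± 0.042 RPKM, with 4 to 39 counts in a library over both experiments. The WT libraries of the full-deletion experiment gave 116 ± 8.40 RPKM for Igfbp2 and 9.87 ± 3.31 RPKM for Igfbp3. Levels in the 2 experiments were normalised separately and no test was made between them.

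**Figure D1:**
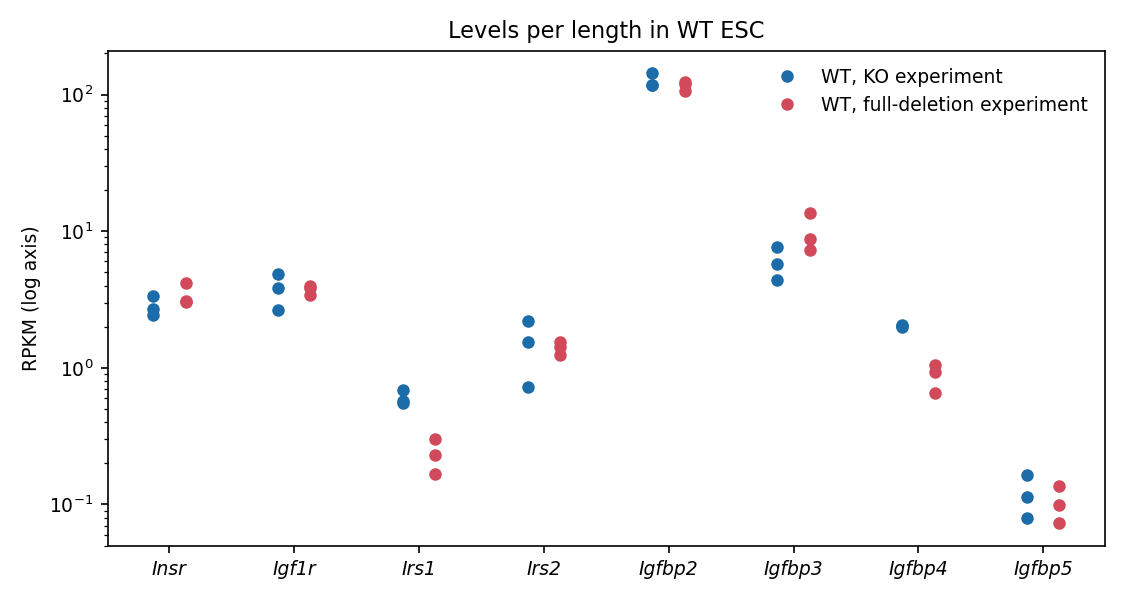
Level per length of each gene in WT ESC, in RPKM on a log axis, with 1 point for each of the 3 WT libraries of the KO experiment (blue) and of the full-deletion experiment (red). Igfbp2 lies above 100 RPKM in all 6 libraries, Igfbp5 lies below 0.2 RPKM in all 6, and the blue and red points of Irs1 and Igfbp4 do not meet. The share of all genes whose points do not meet was not counted.

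The ligands were scarce in these cells. Igf2, the growth factor of the embryo, was read at 1.49 to 3.67 CPM in the 6 WT libraries, and Igf1 had no more than 26 counts in any WT library. Ins2 had no count in any of the 15 libraries and Ins1 had 1 count in a single WT library. The decoy receptor Igf2r, which clears IGF2, was plentiful at 97.8 to 182 CPM in WT.

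The insulin receptor did not separate any of the groups. Insr stood at 26.0, 32.7 and 23.8 CPM in WT libraries a, b and c and at 29.8 and 31.2 CPM in KO libraries a and b. The add-backs held 36.8 and 28.9 CPM (Hmga1) and 40.3 and 30.2 CPM (Hmga2). In the full-deletion experiment the WT libraries held 29.2, 40.2 and 29.8 CPM and the full-deletion libraries 34.2, 33.7 and 29.9 CPM. WT and mutant libraries overlapped in both experiments, and the order of the 4 group means of the KO experiment, from the Hmga2 add-back down to WT, was made of neighbours whose libraries overlapped. The log2 fold change was 0.06 in KO against WT (95% interval -0.38 to 0.50, adjusted p = 0.932) and -0.02 in full deletion against WT (-0.37 to 0.33, adjusted p = 0.931), both from edgeR. A change of Insr by a factor of 2 in either direction therefore lies outside both intervals.

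Igf1r, the IGF1 receptor, overlapped between WT and mutant libraries in both experiments. It ranged from 33.8 CPM in WT c to 67.6 CPM in the Hmga2 add-back b of the KO experiment, and from 43.6 to 51.1 CPM in the full-deletion experiment. The WT libraries alone spanned 33.8 to 62.0 CPM. KO exceeded WT by 0.20 on the log2 scale (95% interval -0.13 to 0.53, adjusted p = 0.588, edgeR) and the full deletion differed from WT by 0.01 (-0.23 to 0.24, adjusted p = 0.964). The libraries labelled Hmga1 add-back, at 56.3 and 50.4 CPM, lay below both KO libraries, at 61.7 and 66.1 CPM, and 14.8% of all genes were apart between these groups. They held 91.4% of KO in batch a and 76.3% in batch b (log2 -0.25, 95% interval -0.58 to 0.08, adjusted p = 1, edgeR). In the order of the group means, KO, Hmga2 add-back, Hmga1 add-back and WT, every pair of neighbours overlapped.

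**Figure D2:**
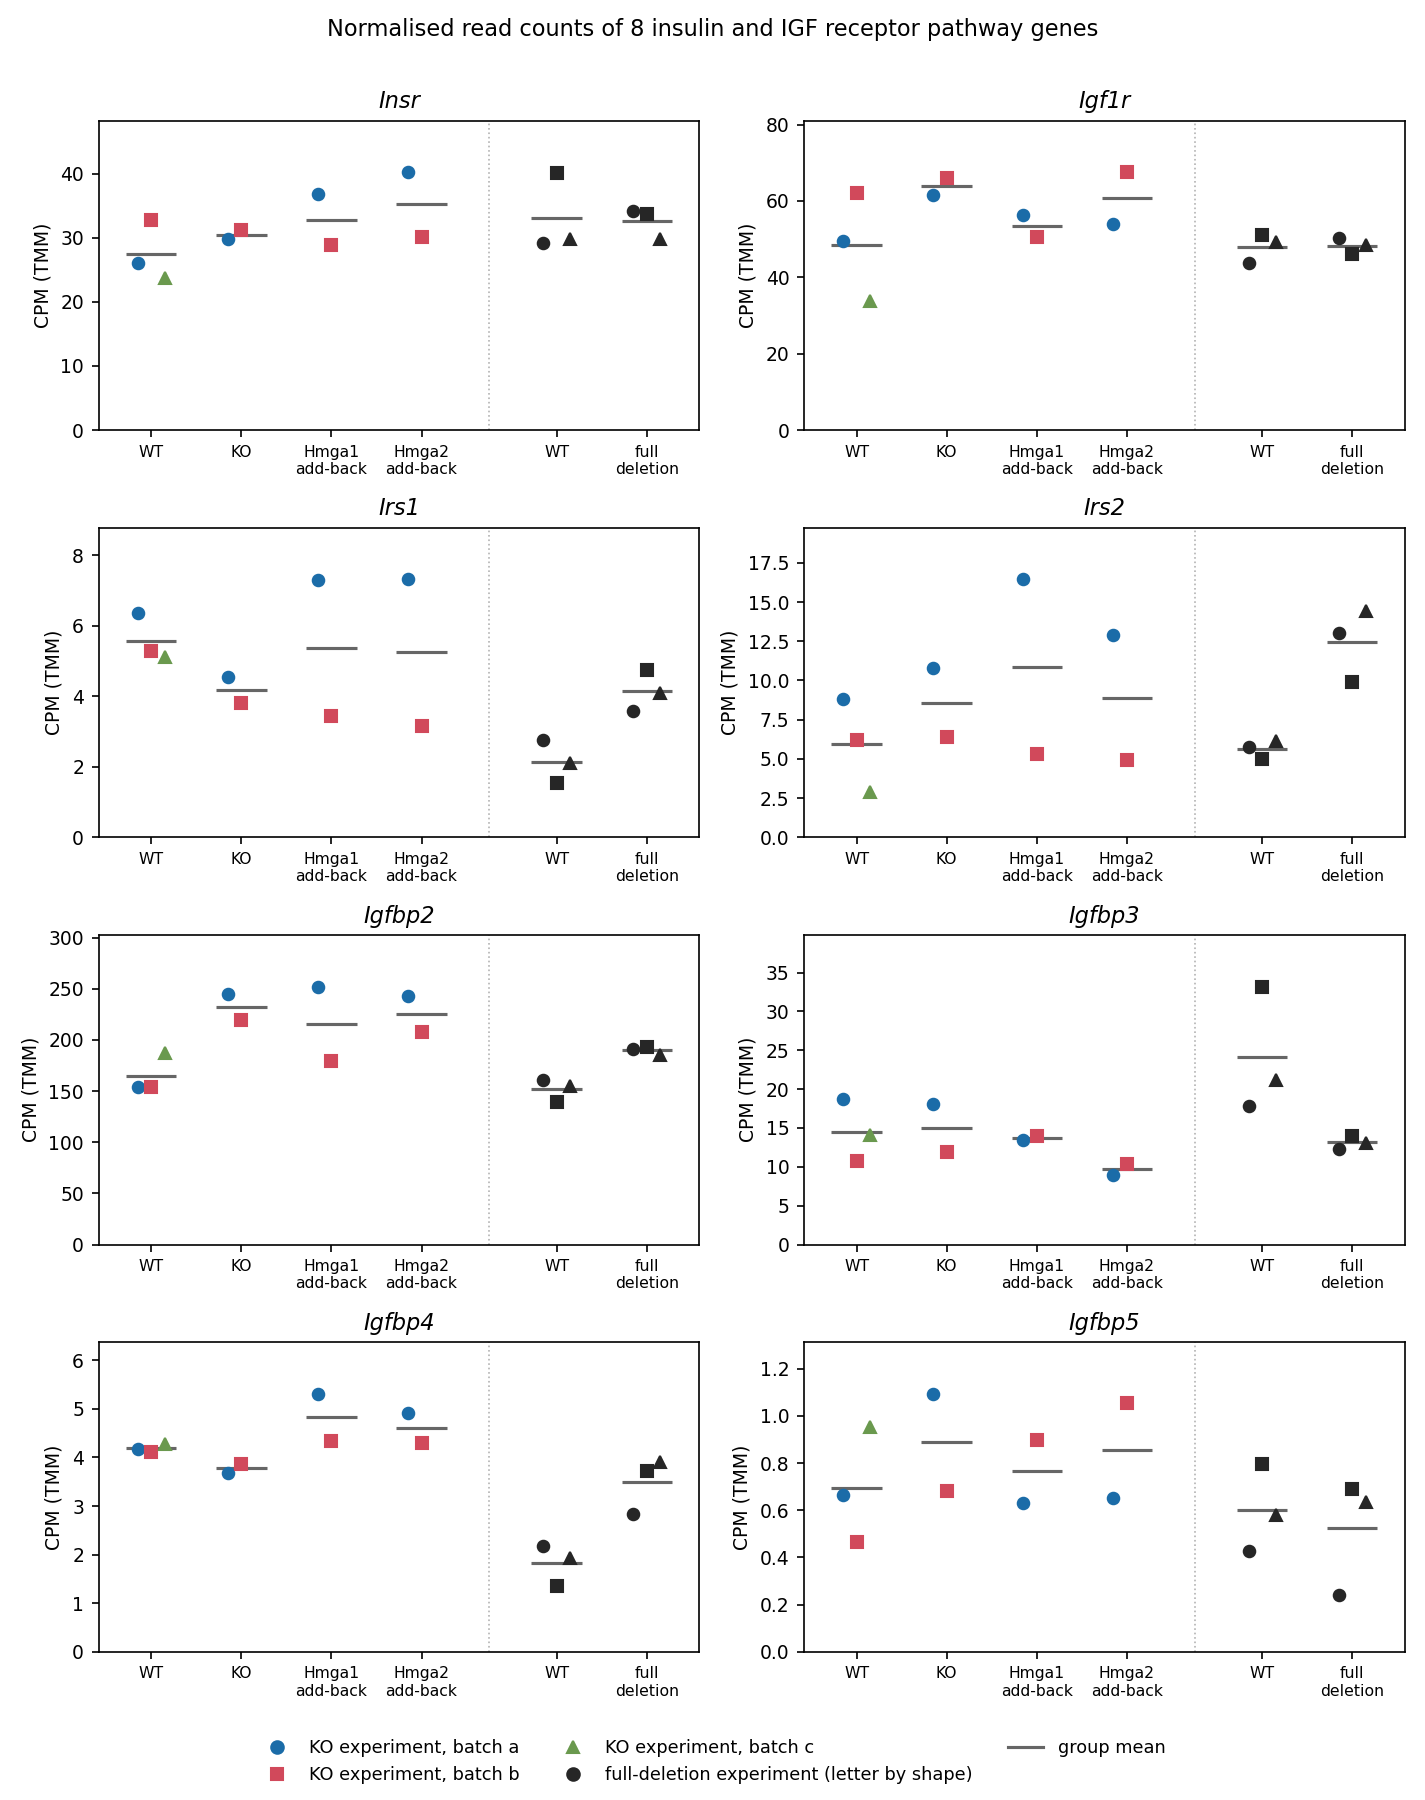
TMM-normalised CPM of the 8 genes in each of the 15 libraries, by group, with the KO experiment left and the full-deletion experiment right of the dotted line. Colour and shape give the batch in the KO experiment, shape alone the replicate letter in the full-deletion experiment, and bars the group mean. In the full-deletion experiment the 2 groups are apart for Irs1, Irs2, Igfbp2, Igfbp3 and Igfbp4 and overlap for Insr, Igf1r and Igfbp5, where 51.3% of all genes tested are apart.

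The adaptor Irs2 was the member that differed most in the full-deletion line. It stood at 5.74, 4.96 and 6.16 CPM in the WT libraries and at 13.1, 9.93 and 14.4 CPM in the full-deletion libraries. Every full-deletion library lay above every WT library, and 51.3% of all genes tested were apart between these groups. Irs2 was 2.21-fold higher (log2 1.14, SE 0.18, 95% interval 0.72 to 1.57, adjusted p = 0.0241, edgeR). This passed an adjusted p under 0.05 and missed the study's rule of an adjusted p under 0.01 with a fold of at least 2. Under that rule edgeR called 0 of 8 members, where 9 of 13098 genes (0.0687%) were called, and 5 members had an unadjusted p under 0.05, as 37.0% of all genes had. At an adjusted p under 0.05 with no minimum fold, 1 of 8 members was called, where 1080 genes (8.25%) were. Without WT library b the log2 fold change of Irs2 was 1.06 (adjusted p = 2.7e-05), past both rules, while without WT library c or any full-deletion library its adjusted p rose above 0.05.

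Irs1, the adaptor first found downstream of the insulin receptor, was also higher in every full-deletion library. It stood at 2.75, 1.53 and 2.12 CPM in WT and at 3.57, 4.75 and 4.09 CPM in full deletion. The groups did not overlap, as those of 51.3% of all genes tested did not. The log2 difference was 0.94 (SE 0.25, 95% interval 0.37 to 1.52), with an edgeR adjusted p of 0.0545 that misses the threshold. The counts behind these values were as low as 25 in a library.

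Of the binding proteins, Igfbp4 was higher and Igfbp3 lower in the full-deletion line. Igfbp4, which restrains IGF action until it is cleaved by pappalysin, stood at 2.18, 1.35 and 1.93 CPM in WT and at 2.84, 3.71 and 3.91 CPM in full deletion. Igfbp3, the main IGF carrier of serum, stood at 17.8, 33.2 and 21.2 CPM in WT and at 12.3, 14.0 and 13.1 CPM in full deletion. Neither gene's groups overlapped, and nor did those of 51.3% of all genes tested. WT library b held both the highest Igfbp3 and the lowest Igfbp4 of its group. The log2 differences were 0.93 for Igfbp4 (SE 0.24) and -0.87 for Igfbp3 (SE 0.23), each with an edgeR adjusted p of 0.0544. Without WT library b they were 0.77 and -0.57.

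Igfbp2, a binding protein prominent in fetal tissues, differed by less but with little spread. It stood at 160.4, 139 and 155 CPM in WT and at 191, 193 and 186 CPM in full deletion. The log2 difference was 0.32 (SE 0.10, adjusted p = 0.0726, edgeR), and the groups were apart, as were those of 51.3% of all genes tested. Igfbp5, by contrast, ranged over 0.43 to 0.80 CPM in WT and 0.24 to 0.69 CPM in full deletion, an overlap at very low counts (log2 -0.13, 95% interval -1.19 to 0.94). Taking the 8 genes as a list, the median log2 difference was 0.16, with 5 higher and 3 lower, against a median of 0.04 and 53.4% higher over all genes tested.

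Without WT library b, 5 members passed an adjusted p under 0.05 (Irs1, Irs2, Igfbp2, Igfbp3 and Igfbp4), and so did 42.5% of all genes. With DESeq2's Wald test in place of edgeR the same 5 passed, and so did 24.7% of all genes. With summed counts as library sizes the median of all genes moved to 0.32, so the fold changes are to be read relative to that scale.

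The WT levels of Irs1 and Igfbp4 also stood apart between the experiments, and those of the other members overlapped. The share of all genes apart between the WT groups was not counted, so these values do not show whether Irs1 and Igfbp4 are unusual. Irs1 was 5.10 to 6.35 CPM in the WT of the KO experiment and 1.53 to 2.75 CPM in the WT of the full-deletion experiment, with the full-deletion line between them. Igfbp4 was 4.11 to 4.27 CPM against 1.35 to 2.18 CPM, and the full-deletion line at 2.84 to 3.91 CPM again lay between. For Irs2 the WT libraries overlapped between experiments, at 2.90 to 8.82 and 4.96 to 6.16 CPM, and the full-deletion line lay above both. Igfbp3 was 10.7 to 18.8 CPM against 17.8 to 33.2 CPM, and the full-deletion line fell within the range of the first. These levels come from separate normalisations and their difference was not tested.

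Cell-type markers were read beside these results. The summed level of 12 feeder fibroblast markers was 767 to 1026 CPM in full deletion and 498 to 634 CPM in its WT. Fn1, which made up nearly all of this sum, had group means of 869.8 and 579 CPM, and all 4 feeder markers tested were higher in full deletion. Their log2 differences were 1.34 for Pdgfrb (SE 0.34, adjusted p = 0.0523, edgeR), 0.68 for Acta2 (SE 0.27), 0.59 for Fn1 (SE 0.16) and 0.43 for Thy1 (SE 0.32), and none passed an adjusted p under 0.05. The other 8, Col1a1 among them, were too low to be tested, and of these Col3a1, Postn and Dcn had no count in either group. In a joint fit of all 15 libraries the KO effect on Col1a1 exceeded its full-deletion effect by 2.08 (log2, SE 0.71, adjusted p = 0.226, edgeR). Its KO effect alone was 1.03 (SE 0.52), so this estimate gives no rise of Col1a1 in full deletion. Otx2 was the 1 gene of 5 tested on the neural and formative list that passed, and was higher in full deletion (log2 1.34, adjusted p = 0.0334, edgeR). The other 4 were lower and did not pass, and the median of the list was -0.04. Fgf4 was the 1 of 10 ESC markers that passed and was lower (-0.70, adjusted p = 0.0279, edgeR). Of that list 4 were higher and 6, with Fgf4, lower. The summed level of the ESC list was 3996 to 4048 CPM in full deletion. In WT it was 4519.5 CPM in library a, 6799 CPM in b and 4464 CPM in c. None of the 8 tested primitive endoderm markers passed, and 4 were higher and 4 lower. The sum of all 10 markers of that list was 289 to 303 CPM in full deletion against 308 to 369 CPM in WT. The part of these shifts in the members' values was not tested, and in bulk RNA fewer cells of a type and less RNA in each cell cannot be told apart.

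In the frameshift KO no member was called. Under the study's rule 3 of 13912 genes (0.0216%) were called and at an adjusted p under 0.05 with no minimum fold 9 genes (0.0647%), with 0 of 8 members under either. Igfbp2 came nearest. It stood at 154, 154 and 187 CPM in WT a, b and c and at 245 and 219 CPM in KO a and b, so both KO libraries lay above all 3 WT libraries. WT c, alone in its batch, does not bear on the edgeR fold change below. Set against the WT library of its own batch, KO held 159% (a) and 143% (b). In edgeR the log2 fold change of 0.59 (SE 0.13, 95% interval 0.29 to 0.89) had an adjusted p of 0.145, and Igfbp2 was the 1 member with an unadjusted p under 0.05, as 12.6% of all genes had. Over 17 alternatives its log2 fold change ran from 0.46 to 0.73, and it was called under the study's rule in 0 of them. With DESeq2's Wald test its adjusted p was 0.0175, where 199 genes (1.43%) passed an adjusted p under 0.05. Leaving out a KO library, WT a or WT b leaves 1 library on a side, so those p-values are not given.

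Irs1 was lower in KO within each batch, the opposite sign to that in the full deletion. It stood at 6.35, 5.27 and 5.10 CPM in WT and at 4.54 and 3.80 CPM in KO, so that KO held 71.5% (a) and 72.0% (b) of the WT of its batch. Its log2 fold change of -0.49 (95% interval -1.19 to 0.22) had an adjusted p of 0.55 in edgeR. The difference between the KO and the full-deletion effects was tested directly in a joint fit of all 15 libraries. For Irs1 it was -1.42 on the log2 scale (SE 0.40, adjusted p = 0.176, edgeR), and for Igfbp4 -1.06 (SE 0.34, adjusted p = 0.206). Irs2 differed by -0.97 (SE 0.35, adjusted p = 0.233) and Igfbp3 by 0.91 (SE 0.39, adjusted p = 0.256). These 4 had an unadjusted p under 0.05, as 18.4% of all genes had. None of the 8 members passed in this test, in which 13 of 13671 genes (0.0951%) passed the study's rule and 42 (0.307%) an adjusted p under 0.05.

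The other members of the KO comparison overlapped or were close. Igfbp3 stood at 18.8, 10.7 and 14.1 CPM in WT and 18.1 and 11.9 CPM in KO, and both groups were lower in batch b than in batch a. Igfbp4 stood at 4.17, 4.11 and 4.27 CPM in WT and at 3.67 and 3.87 CPM in KO, a small gap with a log2 fold change of -0.14 (SE 0.24). Irs2 and Igfbp5 had log2 fold changes of 0.17 (SE 0.29) and 0.66 (SE 0.48) with overlapping libraries. The median over the 8 genes was 0.11, with 6 higher and 2 lower, against a median of -0.01 and 48.6% higher over all genes tested. Igfbp2, Irs1 and Igfbp4 were the 3 members whose WT and KO libraries did not overlap, and 23.5% of all genes did not. Beside these values, all 10 primitive endoderm markers were lower in KO, with a median log2 fold change of -2.08, and none of them passed an adjusted p under 0.05. The summed level of that list was lower in KO only in batch a, at 347 CPM against 893 CPM in WT. In batch b it was higher in KO, at 667 CPM against 601 CPM. WT library c held 793 CPM. The 12 feeder markers summed to 635 CPM in KO against 511 CPM in WT in batch a. Their sum was lower in KO in batch b, at 646 CPM against 679 CPM, and WT library c held 385 CPM. In the fit all 5 tested feeder fibroblast markers were higher in KO, with a median log2 fold change of 0.48. The largest value was 1.03 for Col1a1 (SE 0.52), and none passed an adjusted p under 0.05. The part of either list in the members' values was not tested.

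**Figure D3:**
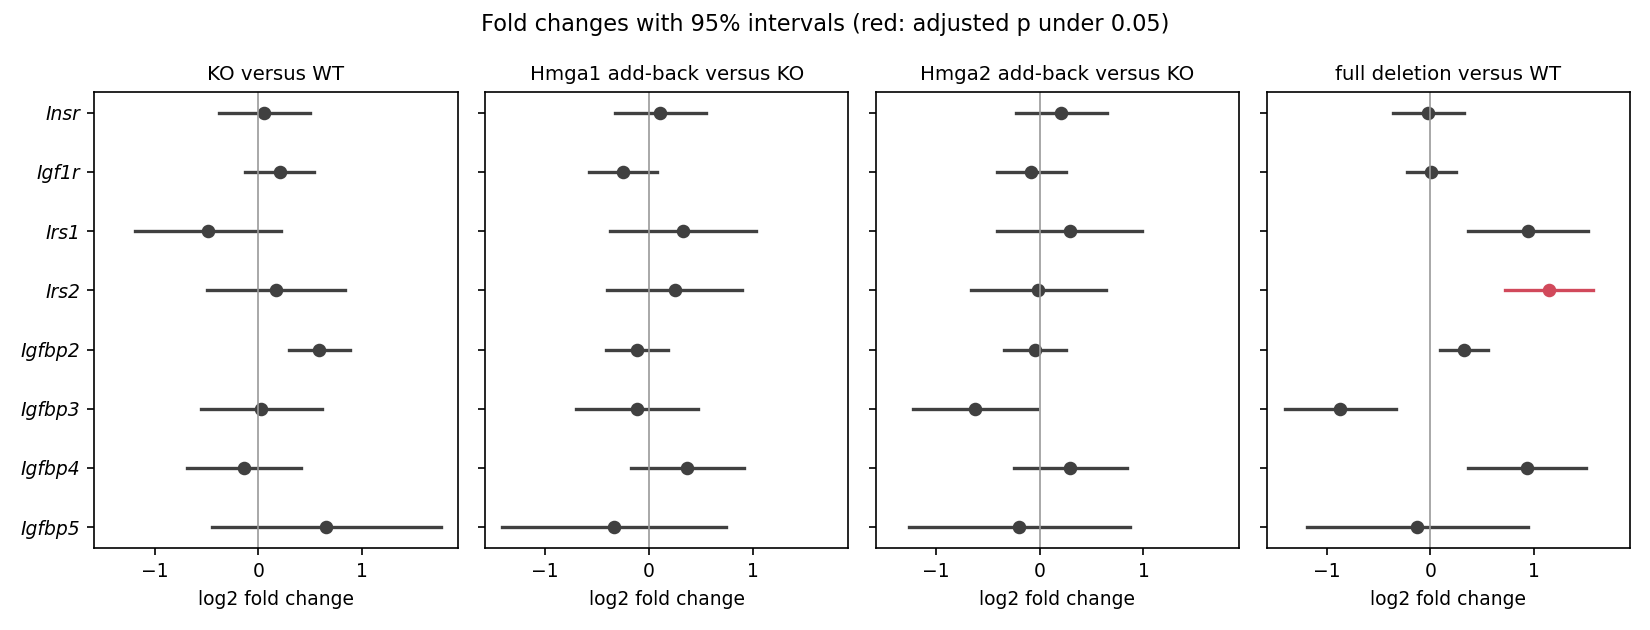
Log2 fold change of each gene with its 95% interval, in 4 panels by comparison, from edgeR, with red for an adjusted p under 0.05. The single red point is Irs2 in full deletion against WT, and the intervals of Irs1, Igfbp2, Igfbp3 and Igfbp4 in that panel also exclude 0 before adjustment. The 2 add-back panels share the KO libraries and the first panel shares them too.

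Adding Hmga1 or Hmga2 back to the KO line moved no member past the test. For the libraries labelled Hmga1 add-back against KO, 0 of 13912 genes (0%) were called at either threshold, 390 had an unadjusted p under 0.05, and none of these was a member. DESeq2's Wald test called 2 genes under the study's rule and 14 at an adjusted p under 0.05, and limma-trend called 0 under both. Igfbp2 was close to its level in KO, with 252 and 179.9 CPM in the Hmga1 and 243 and 208 CPM in the Hmga2 add-back. Its log2 differences from KO were -0.11 (95% interval -0.41 to 0.18) and -0.05 (-0.34 to 0.25). For the Hmga2 add-back against KO, 1 gene, Hmga2 itself (0.00719%), passed the study's rule and 2 (0.0144%) an adjusted p under 0.05.

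Igfbp3 was lowest in the Hmga2 add-back, at 9.0 and 10.3 CPM against 18.1 and 11.9 CPM in KO. Its share of the KO level was 49.8% in batch a and 86.7% in batch b. With a log2 fold change of -0.63 (SE 0.26, adjusted p = 0.877, edgeR) it was the 1 member with an unadjusted p under 0.05, as 5.09% of all genes had. In the Hmga1 add-back Igfbp3 stood at 13.5 and 14.0 CPM, inside the range of the KO. Igfbp4 was above KO in both batches of both add-backs, at 5.31 and 4.35 CPM (Hmga1) and 4.91 and 4.29 CPM (Hmga2), with log2 differences of 0.37 (SE 0.24) and 0.30 (SE 0.24) that did not pass. In each add-back 2 of 8 members did not overlap with KO, Igf1r and Igfbp4 for Hmga1 (14.8% of all genes), and Igfbp3 and Igfbp4 for Hmga2 (20.4% of all genes). Both add-back comparisons share the KO libraries.

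Irs1 and Irs2 moved with the batches of the KO experiment. Irs2 was lower in batch b than in batch a in each of the 4 groups. It fell from 8.82 to 6.20 CPM in WT, from 10.8 to 6.38 CPM in KO, from 16.4 to 5.32 CPM in the Hmga1 add-back and from 12.9 to 4.93 CPM in the Hmga2 add-back. The share left in batch b ran from 32.4% to 70.3%, and WT c held the lowest value of all, 2.90 CPM. Batch b against batch a gave a log2 fold change of -1.07 for Irs2 (SE 0.21, adjusted p = 0.00645, edgeR), past the study's rule, which 326 genes (2.34%) passed.

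Irs1 was lower in batch b in each group as well. It stood at 7.29 and 3.45 CPM in batches a and b of the Hmga1 add-back and at 7.31 and 3.17 CPM in those of the Hmga2 add-back. In WT and KO the share left in batch b was 83.0% and 83.6%, and in the add-backs 47.3% and 43.3%. Its log2 fold change was -0.70 (SE 0.22, adjusted p = 0.0377, edgeR). Igfbp2 was lower in batch b in each group too, at 71.3% to 99.7% of batch a, and did not pass (log2 -0.22, SE 0.09, adjusted p = 0.0943, edgeR). At an adjusted p under 0.05, 2 of 8 members (25%), Irs1 and Irs2, were called between batches, against 35.6% of all genes. A count over 8 genes is too small to set these shares apart. Without the add-back libraries the log2 difference was -0.63 for Irs2 (adjusted p = 0.0981) and -0.26 for Irs1 (adjusted p = 0.503).

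**Figure D4:**
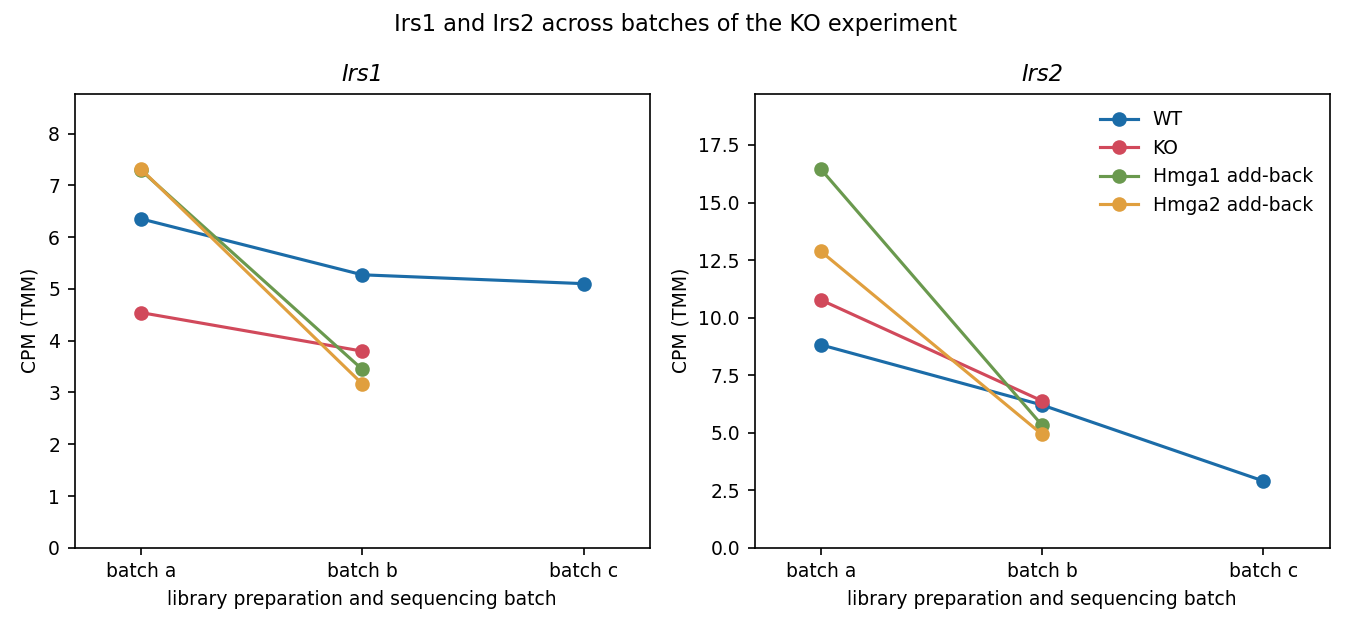
TMM-normalised CPM of Irs1 and Irs2 in the KO experiment, by batch of library preparation and sequencing, with a line for each group. All 4 lines of each gene fall from batch a to batch b, most steeply in the add-backs, and only WT has a point in batch c.

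The other 75 genes listed for the pathway passed the test at shares near those of all genes. In full deletion against WT, 64 were tested and 6 passed an adjusted p under 0.05 (9.38%, against 8.25% of all genes), of which 5 rose and 1 fell. The insulin-regulated glucose transporter gene Slc2a4 rose (log2 1.06, SE 0.19, adjusted p = 0.0301, edgeR), with 75 to 104 counts in full deletion and 39 to 42 in WT. The adaptor gene Sh2b2 rose (1.38, SE 0.26, adjusted p = 0.0327) and so did the AKT phosphatase gene Phlpp2 (0.93, SE 0.18, adjusted p = 0.0337). The adaptor gene Gab1 fell by 0.57 on the log2 scale (SE 0.12, adjusted p = 0.0383). By role, 2 of 11 tested adaptors, 3 of 15 inhibitors and 1 of 9 genes of the FOXO and GSK3 branch passed, and none of the 10 PI3K and AKT kinases or the 13 genes of the mTOR branch. Igf2r was 0.46 higher on the log2 scale (SE 0.12, adjusted p = 0.0584), and Igf2 was 0.28 lower (log2 -0.28, SE 0.28).

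In KO against WT and in both add-back comparisons 0 of the 64 passed. Of all genes 0.0647% passed in KO, 0% in the Hmga1 and 0.0144% in the Hmga2 add-back, so this count does not set the pathway apart. The smallest adjusted p in KO was that of Grb10, an imprinted adaptor that restrains both receptors, with a log2 fold change of -1.12 (SE 0.25, adjusted p = 0.155, edgeR). The log2 difference of Igf2r was 0.43 in KO against WT (SE 0.16, adjusted p = 0.346, edgeR). Against KO, Igf2r differed by -0.54 in the Hmga1 add-back (SE 0.16) and by -0.03 in the Hmga2 add-back (SE 0.16). Between batches 23 of the 64 passed (35.9%, against 35.6% of all genes).

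Across the 15 libraries, after subtracting the mean of each experiment, the genes most like each member were named by Pearson's r of log2 CPM among 13050 genes. Irs2 was most like Mpp2 and Sipa1l2 (r = 0.968 and 0.967) and Irs1 most like Tbc1d10a and Man2b1 (r = 0.941 and 0.940). The highest values for Insr were those of Mcf2l and Rbl2 (r = 0.965 and 0.938). Igfbp2 was most like Mrnip (r = 0.938), Igfbp3 most like Dis3l (r = 0.926) and Igfbp4 most like Fam129c (r = 0.941). For Igf1r the highest value was that of Sbf2 (r = 0.940), which was 0.962 over the 9 libraries with the KO line and its WT and add-backs but 0.365 over the other 6. Igfbp5 had the lowest of these values, with Fank1 (r = 0.764), which was 0.482 over the 9 libraries of the KO experiment and 0.941 over the other 6. Among the 13050 genes the 99th percentile of r ran from 0.554 for Igfbp5 to 0.907 for Irs2. These libraries share batches and depths, and no test was made of these values.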

How the data were processed

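Per the labels and the study's methods, RNA depleted of ribosomal RNA was made into strand-specific ScriptSeq libraries. The authors mapped the reads to mm9 with Bowtie through QuasR (processing notes also name bcl2fastq 2.17), placed multi-mapping reads at 1 random alignment, and deposited raw counts per UCSC knownGene gene, same strand only, with a gene width of another unit (bases of exon). Multi-mapping reads can blur near-identical genes.

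Here the 15 deposited count columns were fitted with edgeR 4.0.16 in R 4.3.3 (quasi-likelihood, TMM, mean count of at least 10, Benjamini-Hochberg over all genes), with batch as a term in the KO experiment and none in the full-deletion experiment, as in the study's design; limma 3.58.1 and DESeq2 1.42.0 served as alternatives. A call needed an adjusted p under 0.01 and a fold of at least 2, and a relaxed rule an adjusted p under 0.05. Intervals are 95% from the fitted SE. CPM are TMM-scaled within an experiment and RPKM divide them by gene width. The scripts were tested on simulated data. Figures used matplotlib in Python.

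Same-lettered libraries of the KO experiment deviated together (r of the a minus b differences 0.319 to 0.758) and share batches, which pairs them, so the replicate block is in that fit. In the full-deletion experiment r was -0.0546 to 0.0703, so letters there pair nothing. Replicates were cultures of 1 line, so p-values measure the spread between cultures and libraries.

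Named genes were all 8 members, Hmga1 and Hmga2, ligands and other receptors, up to 4 pathway genes with the smallest adjusted p in a comparison, up to 4 markers of a list and any at 0, and for each member the 2 genes most like it. Members and lists were chosen with earlier results of these data known. Promoter sequences were RefSeq's (7 of 8 members matched).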

Additional observations from a re-analysis of the deposited data

How the results depend on the processing

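No member was called in either add-back comparison, in KO against WT or in the test between the KO and full-deletion effects under any alternative run. The number of members called between batches was 1, and became 2 at an adjusted p under 0.05 with no minimum fold, 0 without the add-back groups and 0 to 1 when a library was left out: Irs2 lost its call without any KO or add-back library. In full deletion against WT it was 0, and became 1 at an adjusted p under 0.05 with no minimum fold, 1 with DESeq2's Wald test and 0 to 1 when a library was left out, the 1 being Irs2 without WT library b. With the replicate letter as a replicate block in the full-deletion experiment, where letters pair nothing, 0 members were called and 396 genes passed an adjusted p under 0.05 against 1080 without it. Without the replicate block in the KO experiment, Irs2 in the Hmga2 add-back against KO changed sign to 0.0595.

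The number of all genes at an adjusted p under 0.05 moved more. In KO against WT it was 9, and 199 with DESeq2's Wald test, 93 with no filter on low counts and 23 without the replicate block. In full deletion against WT it was 1080, and 3239 with DESeq2's Wald test, 5592 without WT library b and 3 to 4 without WT library c or any full-deletion library. Between batches it was 4959, and 1557 without the add-back groups. Between the effects it was 42, and 329 with DESeq2's Wald test and 667 without WT library b of the full-deletion experiment.

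Other sign changes were those of small log2 differences. With summed counts they were Irs2 in the Hmga2 add-back (0.0333), Igfbp5 between batches (-0.0874), Insr (0.29) and Igfbp5 (0.16) in full deletion, and Insr (-0.23) and Igf1r (-0.0864) between the effects. Without the add-back groups the batch differences were 0.20 for Insr, 0.0266 for Igfbp4 and -0.60 for Igfbp5. In full deletion, Insr became 0.0029 with a mean count of at least 50, and Igf1r -0.0310 with DESeq2's size factors and -0.0307 with its Wald test. The cause was not tested.

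Leaving out a library at a time, log2 differences that changed sign ran as follows. In KO against WT the ranges were -0.21 to 0.34 for Insr, -0.24 to 0.50 for Irs2, -0.25 to 0.44 for Igfbp3 and -0.25 to 0.00098 for Igfbp4. In the Hmga1 add-back they were -0.0845 to 0.27 for Insr, -0.0141 to 0.58 for Irs1, -0.20 to 0.55 for Irs2, -0.31 to 0.0566 for Igfbp2, -0.34 to 0.11 for Igfbp3 and -0.69 to 0.26 for Igfbp5. In the Hmga2 add-back they were -0.0106 to 0.41 for Insr, -0.20 to 0.0492 for Igf1r, -0.10 to 0.56 for Irs1, -0.25 to 0.17 for Irs2 and -0.58 to 0.41 for Igfbp5. Between batches they were -0.23 to 0.0174 for Insr and -0.21 to 0.29 for Igfbp5. In full deletion they were -0.11 to 0.14 for Insr, -0.0667 to 0.0514 for Igf1r and -0.38 to 0.16 for Igfbp5. Between the effects the range for Insr was -0.17 to 0.37. Depth limits Igfbp5 most, at 4 to 39 counts a library.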
